A study of Homo sapiens with 3 samples.

Results

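The 42 genes described here copy DNA or supply its building blocks. They were chosen by function, as all probes whose platform gene symbol was one of 42 named replication, nucleotide supply and E2F1 symbols. All 42 were found among the 10692 genes tested, and 62 of the 47309 probes on each array belonged to them. H2030-BrM3, a lung adenocarcinoma line with a tendency to form brain metastases, was profiled on Illumina HumanHT-12 V4 BeadChips in 2 arrays of cells carrying a short hairpin RNA against PARP1 (hairpin 1 and hairpin 2, 1 array each) and 1 array of cells carrying a non-targeting hairpin, the control. All cells thus carried a hairpin, and per the labels all were grown for 1 day in medium with 10% fetal bovine serum before RNA isolation. The sources used here give neither the vector, nor the time after its delivery, nor whether the cells were clones. The p-values rest on the gap between the 2 hairpin arrays and on variance borrowed across genes, since the lone control array gives no spread. The labels do not tie the arrays to separate cultures, so part or all of that gap may be technical.

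Replication starts where the origin recognition complex sits on DNA. There CDC6 and CDT1 load the ring-shaped MCM helicase in G1, and geminin later blocks CDT1 so that no origin fires again. CDC45 and the GINS complex switch the helicase on, polymerase alpha-primase lays primers, the RFC clamp loader places the sliding clamp, and polymerases delta and epsilon extend the strands. The E2F transcription factors, E2F1 among them, drive many of these genes at the start of S phase, so their transcripts are often read as a sign of cycling cells. PARP1, which binds broken DNA and makes poly(ADP-ribose), acts at stalled forks and unligated lagging-strand fragments.

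The PARP1 transcript measured 28.3% (hairpin 1) and 12.9% (hairpin 2) of its control level, low on the arrays labelled as depleted. The median probe intensity was between 152 and 162 on the 3 arrays, and 34.6% to 36.8% of probes were above background, taken as a detection p under 0.01. Of 8 markers of a lung epithelial carcinoma, KRT8, KRT18 and EPCAM were above background on all 3 arrays, while KRT19, CDH1, NKX2-1, NAPSA and SFTPB were above it on none. Of 11 markers of blood, fibroblast, endothelial and brain cells, 10 were above background on no array, and COL1A1 gave a dim signal on all 3 (178, 192 and 176 with hairpin 1, hairpin 2 and the control).

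The replication genes as a set stood close to the control with both hairpins. The median log2 ratio over the 42 genes was 0.014 with hairpin 1 and 0.0076 with hairpin 2, against 0.0082 and 0.0019 over all genes tested. With both hairpins, 34 of the 42 genes (81.0%) lay within 1.2-fold of the control, as did 67.2% of all genes tested. Ratios of bright probes scatter less, and these genes are bright. Among genes whose mean level lay between the first and the third quartile of the replication genes, 84.7% of 2598 genes were within 1.2-fold, against 90.0% of the 20 replication genes there. The plot of the distribution of ratios shows the same for the genes above background on all 3 arrays. In bulk cultures, the number of cells that express a gene and the transcript per cell cannot be told apart.

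**Figure D1:**
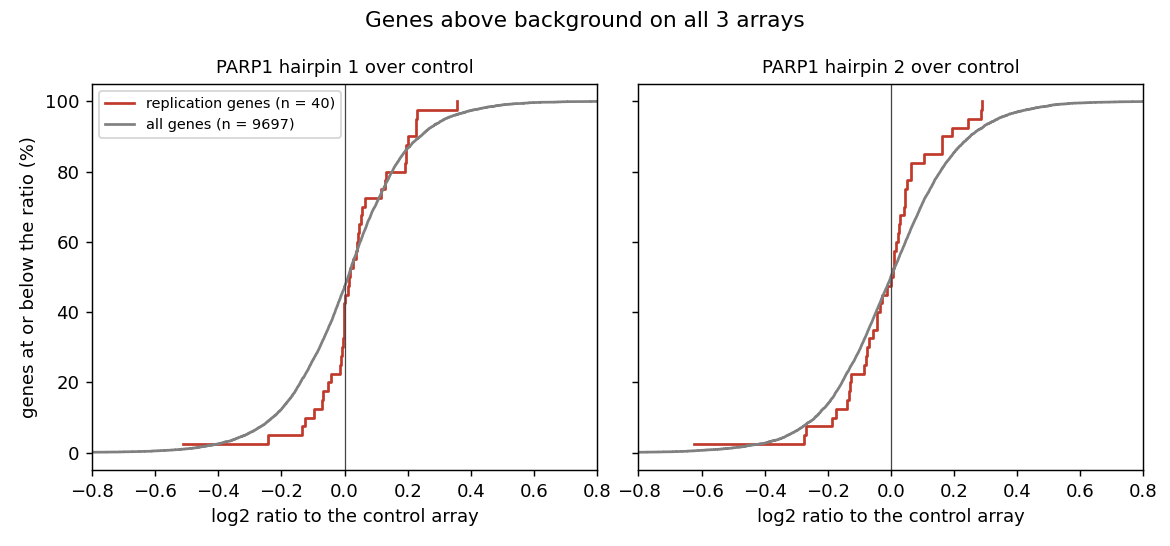
Share of genes (percent, y axis) at or below each log2 ratio to the control array (x axis) for hairpin 1 (left) and hairpin 2 (right). The red steps are the 40 replication genes above background on all 3 arrays and the grey curve all 9697 such genes; the red steps cross 0 near the middle in both panels, with 1 replication gene far to the left in each, RRM2 with hairpin 1 and E2F1 with hairpin 2.

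No member passed the test. In limma, fitted on all 10692 genes with Benjamini-Hochberg adjustment, 0 of the 42 genes had an adjusted p under 0.05, as did 0% of all genes, and the members' adjusted p lay between 0.994 and 0.999. At an unadjusted limma p under 0.05 there was 1 member, POLE2, or 2.38%, against 3.51% of all genes. By size alone, of the 40 members above background on all 3 arrays, 1 (POLE2) was at least 1.2-fold above the control with both hairpins, against 3.25% of such genes, and 0 were at least 1.2-fold below it, against 2.38%. Over all genes tested, dim ones included, the shares were 4.36% and 3.82%. There the measured values of GINS1 pass 1.2-fold too, but it was above background with hairpin 1 only, and its mean over the hairpins has no bound above 1-fold. At 1.5-fold the counts were 0 above and 0 below, against 0.365% and 0.608% of all genes. Above the control with both hairpins were 14 members (33.8% of all genes), below it with both were 9 (31.4% of all genes), and 19 had opposite signs (34.4% of all genes). Both ratios share 1 control array. The moderated standard errors of the members ran from 0.084 to 0.42, and the median 95% half-width of 0.29 corresponds to 1.22-fold. For 36 members the 95% interval lay within 1.5-fold of the control on both sides. The share of all genes with such an interval was not counted. The median moderated SE was 0.125 for the members and 0.147 for all genes, so narrow intervals go with these bright probes. PARP1 itself, with a mean log2 change of −2.39 ± 0.36, had a limma adjusted p of 0.713. With 3 arrays this test thus did not call even the depleted gene, and a count of 0 does not show that the members were unchanged.

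**Figure D2:**
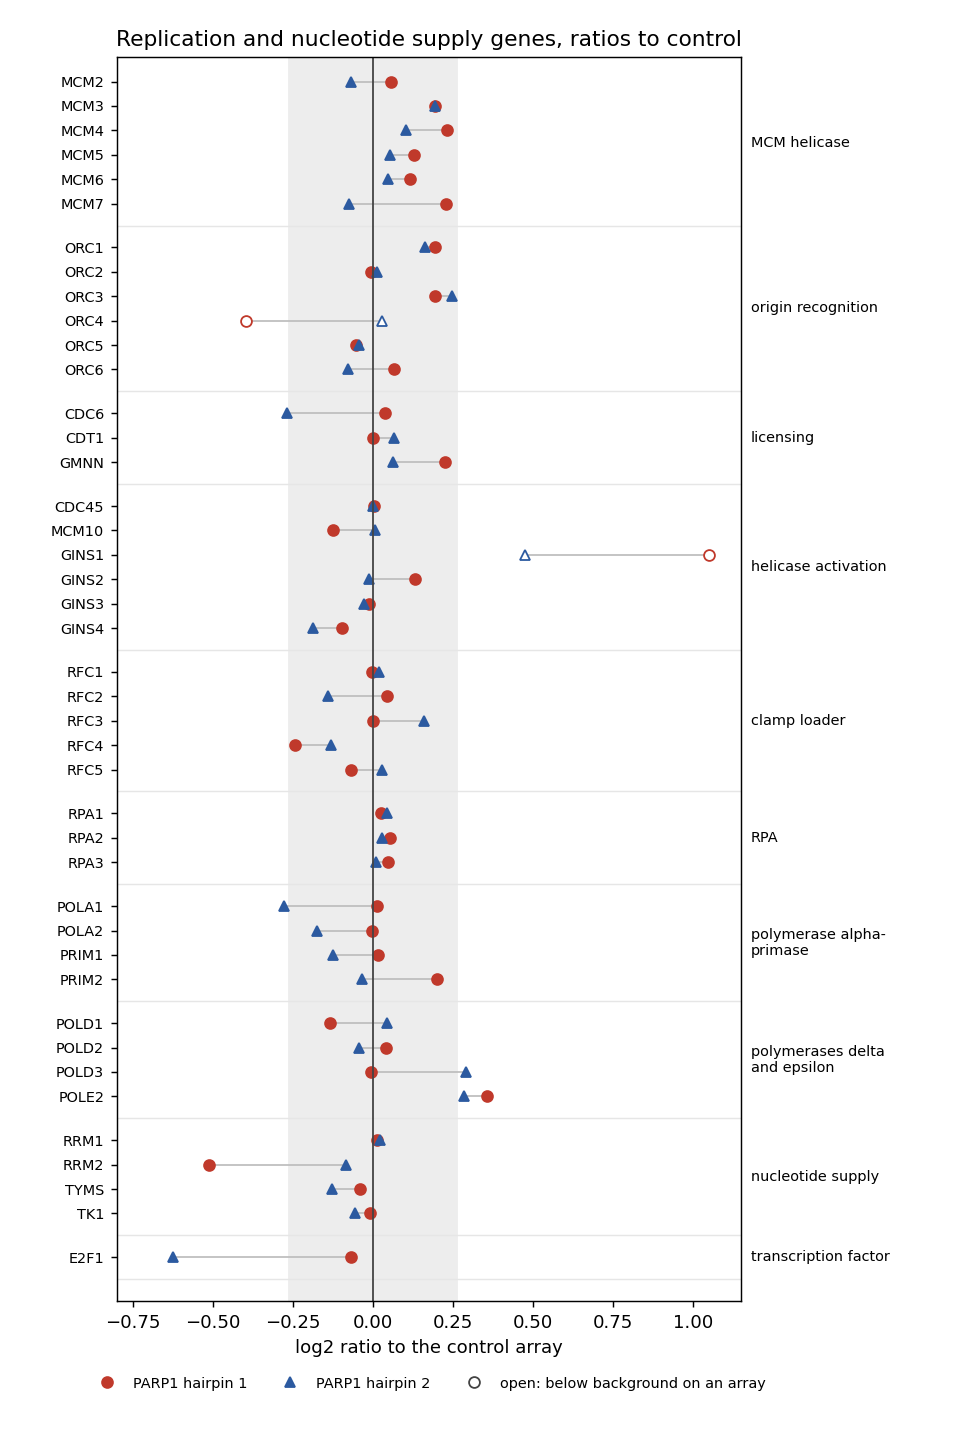
Log2 ratio to the control array (x axis) of each of the 42 genes (rows, grouped by role), with red circles for hairpin 1 and blue triangles for hairpin 2; the shaded band is 1.2-fold either way. Most points lie in the band, POLE2 lies to its right with both hairpins, RRM2 lies to its left with hairpin 1 only, and with hairpin 2 only E2F1, CDC6 and POLA1 lie to its left and POLD3 to its right. Open symbols mark ORC4 and GINS1, which were not above background on every array.

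E2F1, the transcription factor of the set, had normalised log2 intensities of 7.31 with hairpin 1 and 6.76 with hairpin 2, against 7.38 in the control. The hairpin 2 array was thus the low one, at 64.8% of the control, while the hairpin 1 array stood at 95.4%. The mean log2 change was −0.35 ± 0.25 (moderated SE, n = 2 against 1; limma adjusted p = 0.994). The probe is dim, with intensities before normalization of 276 and 252 with hairpins 1 and 2 and 284 in the control, and without background correction the mean log2 change was −0.18.

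The promoters show what many of these genes share in sequence. RefSeq promoters (GRCh38.p14, from 250 bases before to 50 after a gene's start) were at hand for 36 of the 42 genes, in 46 promoters. An E2F-type word (TTCGCGC, the variant TTGGCGC, the variant TTCCCGC or the variant TTGCCGC, on either strand, with overlapping matches counted) occurred in 28 of these 46 promoters (60.9%), against 19.4% of 12630 promoters of the genes tested and 13.0% of 35116 promoters in all. The letters CCAAT, on either strand, occurred in 58.7%, 35.5% and 34.6% of the same sets. Of the 36 genes, 27 held an E2F-type word in at least 1 promoter and 9 held none in these windows. The median log2 change was 0.0071 in the genes with the word and −0.0066 in those without. The promoters below belong to E2F1, to POLE2 (the member with the lowest p), to MCM3 and to RRM2, and are written 5′ to 3′ on the gene's strand with E2F-type words in capitals. They lie at chr20:33686336-33686635 (minus strand, E2F1), chr14:49688165-49688464 (minus strand, POLE2), chr6:52284693-52284992 (minus strand, MCM3) and chr2:10122318-10122617 (plus strand, RRM2, the one of its 2 promoters that holds the word).
E2F1: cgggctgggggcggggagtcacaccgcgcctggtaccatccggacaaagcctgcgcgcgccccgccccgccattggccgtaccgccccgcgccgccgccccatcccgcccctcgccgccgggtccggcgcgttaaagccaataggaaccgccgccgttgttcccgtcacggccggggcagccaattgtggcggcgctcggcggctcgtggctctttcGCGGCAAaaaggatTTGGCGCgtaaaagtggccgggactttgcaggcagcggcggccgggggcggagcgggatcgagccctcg
POLE2: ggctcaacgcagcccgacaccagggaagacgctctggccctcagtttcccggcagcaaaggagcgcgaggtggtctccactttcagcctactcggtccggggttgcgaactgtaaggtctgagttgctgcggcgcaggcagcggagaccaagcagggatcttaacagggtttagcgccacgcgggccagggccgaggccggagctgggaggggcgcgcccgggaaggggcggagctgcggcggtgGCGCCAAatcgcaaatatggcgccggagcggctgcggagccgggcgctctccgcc
MCM3: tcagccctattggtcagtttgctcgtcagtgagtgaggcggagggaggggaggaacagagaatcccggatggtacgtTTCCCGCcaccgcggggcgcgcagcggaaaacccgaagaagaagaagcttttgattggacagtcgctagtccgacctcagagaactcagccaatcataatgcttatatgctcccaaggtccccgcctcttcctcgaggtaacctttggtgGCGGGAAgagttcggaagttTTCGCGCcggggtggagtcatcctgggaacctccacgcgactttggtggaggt
RRM2: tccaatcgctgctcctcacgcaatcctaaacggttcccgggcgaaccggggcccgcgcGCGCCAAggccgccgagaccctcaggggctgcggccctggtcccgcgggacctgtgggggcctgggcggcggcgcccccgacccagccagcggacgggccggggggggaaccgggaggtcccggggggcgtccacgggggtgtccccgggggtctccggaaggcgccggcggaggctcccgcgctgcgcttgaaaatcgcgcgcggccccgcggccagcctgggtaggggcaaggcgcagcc
E2F1 and MCM3 hold 2 and 3 such words, and POLE2 and RRM2 hold 1 each. A match is a run of letters and was not tested for binding.

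The origin recognition complex, which marks origins for loading, had 6 members. ORC3, a core subunit, had normalised log2 intensities of 9.79 with hairpin 1 and 9.84 with hairpin 2, against 9.59 in the control. Both hairpin arrays lay above the control, by 0.22 ± 0.13 on average (limma adjusted p = 0.994). ORC1, the subunit whose level varies most over the cell cycle in human cells, had 8.02 and 7.99 with the hairpins, against 7.83 in the control, a mean log2 change of 0.18 ± 0.15. ORC2 stood at 9.87 and 9.89 against 9.87, ORC5 at 10.94 and 10.95 against 10.99 and ORC6 at 14.36 and 14.21 against 14.29, so that by their brightest probes none of these 3 was more than 0.08 from the control with either hairpin. Other probes above background on all arrays gave log2 ratios of −0.30 with hairpin 1 and 0.36 with hairpin 2 for ORC5, and of −0.12 and 0.16 for ORC6. ORC4 was near background, with a log2 ratio of −0.40 on the hairpin 1 array, where it was not above background, and 0.027 on the hairpin 2 array.

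Of the licensing factors, CDC6, the loader ATPase, had 6.81 with hairpin 1 and 6.50 with hairpin 2, against 6.77 in the control. Only the hairpin 2 array was low, and the mean log2 change was −0.12 ± 0.23. The probe is dim, with intensities before normalization of 232 and 233 with the hairpins and 229 in the control, and without background correction the mean log2 change was −0.050. CDT1, the partner loader, had 10.06 and 10.13 with the hairpins and 10.06 in the control. GMNN, geminin, the inhibitor of CDT1, had 10.76 and 10.60 against 10.53, a mean log2 change of 0.15 ± 0.13. Both hairpin arrays lay above the control for GMNN, and the adjusted limma p was 0.994 for both CDC6 and GMNN.

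Of the 6 MCM helicase subunits, 4 were above the control with both hairpins and 0 below it with both (33.8% and 31.4% of all genes). The medians of their log2 ratios were 0.16 with hairpin 1 and 0.049 with hairpin 2. MCM3 had 12.98 on both hairpin arrays, against 12.79 in the control, and so was 114% of the control with each. Its mean log2 change of 0.19 ± 0.089 had a limma p of 0.060 before adjustment and 0.994 after it. Another MCM3 probe above background on all arrays gave a mean of only 0.046. MCM4 had 12.47 with hairpin 1 and 12.35 with hairpin 2, against 12.24 in the control (0.17 ± 0.10), and its other probe gave a mean of 0.16. MCM7 had 13.83 and 13.53 with the hairpins and 13.60 in the control, so that by the brightest probe the hairpin 1 array was high and the hairpin 2 array was not. Its other 2 probes, above background on all arrays, were below the control with hairpin 1, with log2 ratios of −0.11 and −0.14. MCM2 (10.10 and 9.97 against 10.04), MCM5 (10.15 and 10.08 against 10.02) and MCM6 (12.47 and 12.40 against 12.35) stayed within 0.13 of the control.

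Among the genes that activate the helicase, CDC45 had 11.60 on every array, with log2 ratios of 0.0025 and 0.00063. GINS2 had 11.68 with hairpin 1 and 11.53 with hairpin 2, against 11.55 in the control (mean log2 change 0.060 ± 0.11), and GINS3 had 10.69 and 10.68 against 10.70. GINS4 was low on both hairpin arrays, with 7.78 and 7.69 against 7.87 (−0.14 ± 0.16), and the adjusted limma p of GINS2 and GINS4 was 0.994. MCM10, a factor that binds the helicase as it is activated, had 10.00 and 10.13 against 10.12. GINS1 was above background with hairpin 1 only. Its measured log2 intensities were 5.86 and 5.28 with the hairpins and 4.81 in the control, where the lowest signal above background was 5.63. The mean over the hairpins, 5.57, gave no bound above 1-fold, and only the hairpin 1 value lay above 5.63.

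**Figure D3:**
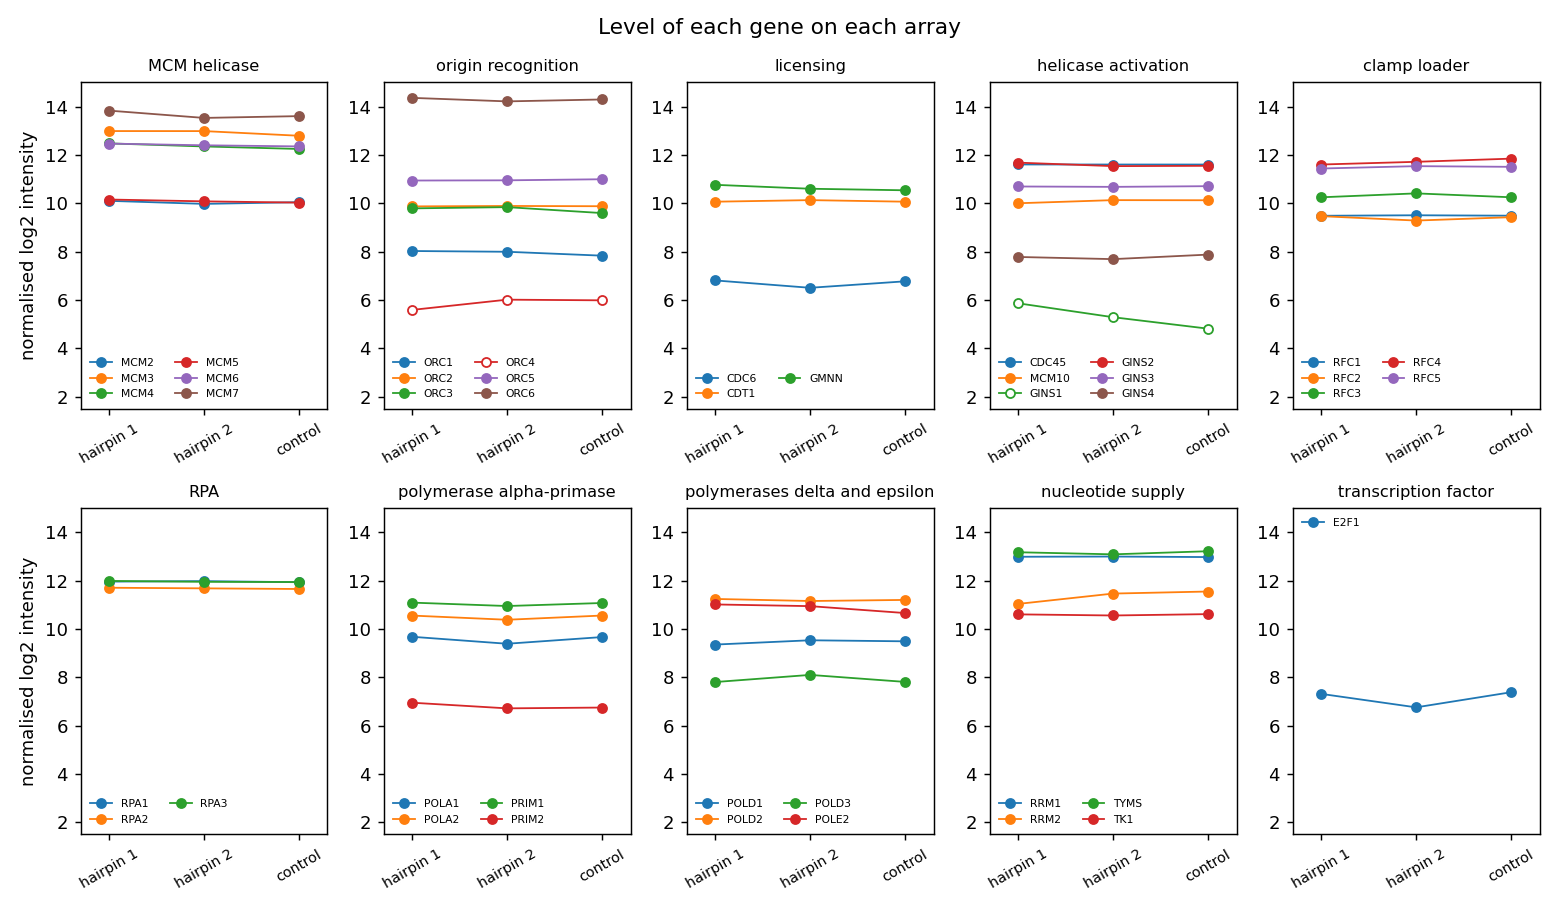
Normalised log2 intensity (y axis) of each gene on the hairpin 1, hairpin 2 and control arrays (x axis), in 1 panel for each role; lines join the values of 1 gene. The lines run nearly flat, apart from the dim genes GINS1 and ORC4 (open symbols, not above background on every array), from E2F1 with hairpin 2 and from RRM2 with hairpin 1; distances between genes are not differences in abundance, because probes differ in brightness.

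Polymerase alpha-primase, the enzyme that starts each new strand, had all 4 of its genes below the control with hairpin 2 by their brightest probes. Of all genes tested, 50.4% were above the control with hairpin 2, a single array. POLA1, the catalytic subunit, had 9.68 with hairpin 1 and 9.39 with hairpin 2, against 9.66 in the control, a mean log2 change of −0.13 ± 0.15. POLA2, its accessory subunit, had 10.55 and 10.38 against 10.55 (−0.088 ± 0.13). The primase subunits PRIM1 and PRIM2 had 11.09 and 10.95 against 11.07, and 6.95 and 6.72 against 6.75. The PRIM2 probe is dim, with intensities before normalization of 243 and 249 with hairpins 1 and 2 and 228 in the control. The 4 log2 ratios with hairpin 2 ran from −0.28 to −0.033, and those with hairpin 1 from −0.0016 to 0.20, while the adjusted limma p of POLA1 and POLA2 was 0.994. Another PRIM1 probe above background on all arrays went the other way, with log2 ratios of −0.12 with hairpin 1 and 0.082 with hairpin 2. The other POLA1 probe was above background with both hairpins but not in the control, and so read higher with the hairpins.

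Next come the clamp loader and RPA, which coats single-stranded DNA. RFC4, a small subunit of the loader, had 11.60 with hairpin 1 and 11.71 with hairpin 2, against 11.84 in the control, and so lay below the control on both arrays (−0.19 ± 0.11). Its other probe, about as bright, gave log2 ratios of 0.096 and 0.077. RFC3 had 10.24 and 10.41 against 10.25 (0.080 ± 0.13), RFC2 9.46 and 9.28 against 9.42 and RFC5 11.43 and 11.53 against 11.50. RFC1, the large subunit, had 9.48 and 9.50 against 9.48 by its brightest probe, but log2 ratios of −0.77 and −0.46 by another. RPA1 had 11.96 and 11.98 against 11.93 (0.035 ± 0.10), RPA2 11.71 and 11.68 against 11.65 (0.040 ± 0.10) and RPA3 11.99 and 11.95 against 11.94. All 3 RPA genes were thus within 0.053 of the control on the log2 scale by their brightest probes, while a further RPA1 probe gave −0.27 with hairpin 1. The limma adjusted p was 0.994 for RFC3, RFC4, RPA1 and RPA2.

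POLE2, an accessory subunit of the leading-strand polymerase epsilon, was the member furthest above the control with both hairpins among those above background on all arrays. It had 11.01 with hairpin 1 and 10.94 with hairpin 2, against 10.66 in the control, or 128% and 122% of the control. Intensities before normalization were 2092 and 2292 with the hairpins and 1668 in the control, so that both hairpin arrays were high and lay closer to each other than to the control. The mean log2 change was 0.32 ± 0.12, with a 95% interval from 0.054 to 0.59 and a limma p of 0.024 before adjustment and 0.994 after it. POLE2 has 1 probe on the array. POLD3, a subunit of the lagging-strand polymerase delta, had 7.80 and 8.10 with the hairpins against 7.81 in the control (0.14 ± 0.17; limma adjusted p = 0.994), and only the hairpin 2 array was high. The catalytic subunit POLD1 had 9.35 and 9.53 against 9.49, and POLD2 had 11.24 and 11.16 against 11.20.

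In nucleotide supply, RRM2, the small subunit of ribonucleotide reductase that limits deoxynucleotide output, had 11.04 with hairpin 1 and 11.46 with hairpin 2, against 11.55 in the control. The hairpin 1 array was low, at 70.1% of the control, and the hairpin 2 array, where PARP1 was lower, stood at 94.3%. The mean log2 change was −0.30 ± 0.17 (limma adjusted p = 0.994). RRM1, the large subunit, had 12.99 and 13.00 with the hairpins and 12.97 in the control. TYMS, thymidylate synthase, had 13.17 and 13.09 against 13.22 (−0.085 ± 0.090; limma adjusted p = 0.994), and TK1, thymidine kinase of the salvage route, had 10.60 and 10.56 against 10.61. For TYMS and TK1 both hairpin arrays were low, by at most 0.13 on the log2 scale.

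Between the hairpin arrays, more members were low with hairpin 2, the hairpin that left less PARP1. Of the 42 genes, 27 were lower with hairpin 2 than with hairpin 1 (64.3%), against 50.3% of all genes tested. Between the first and the third quartile of the replication genes' mean level, it was 12 of 20 replication genes (60.0%), against 51.3% of 2598 genes. By their brightest probes, all 6 MCM helicase genes, from −0.30 (MCM7) to −0.0014 (MCM3), and all 4 polymerase alpha-primase genes, from −0.29 to −0.14, were among them (log2, hairpin 2 minus hairpin 1). E2F1 had the widest gap of the genes above background on all arrays, at −0.56, and RRM2 the widest in the other direction, at 0.43. The clamp loader went the other way, with 4 of 5 genes higher with hairpin 2. The count was chosen after the values were seen and has no replicate, and when arrays were scaled by their medians it was 21 of 42, where 33.9% of all genes were lower with hairpin 2. Other probes of the same genes often differed in this direction, in 9 of 13 genes with at least 2 probes above background on all arrays. Array and hairpin cannot be told apart here, since each hairpin was on 1 array.

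**Figure D4:**
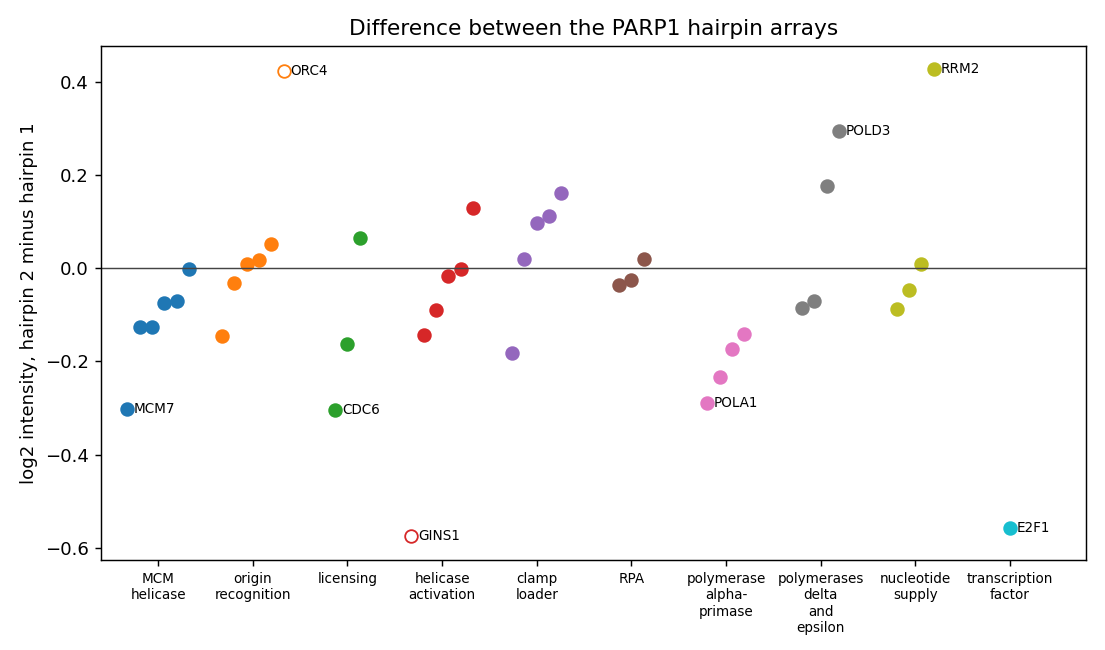
Difference in normalised log2 intensity between the hairpin arrays, hairpin 2 minus hairpin 1 (y axis), for each gene by role (x axis); open symbols are genes not above background on every array. The MCM helicase and polymerase alpha-primase points lie at or below 0, the lowest filled point is E2F1 at −0.56 and the highest is RRM2 at 0.43.

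Where a gene had several probes, these did not always agree in sign. Of the 42 genes, 26 had 1 probe, 12 had 2 and 4 had 3. In 13 of the 16 genes with several, at least 2 probes were above background on all arrays, and in 6 of these 13 the mean log2 change differed in sign between such probes. The median gap between the highest and the lowest probe was 0.15. The largest gap, 0.63, belonged to RFC1, followed by RFC4 at 0.27 and MCM7 at 0.22. MCM4 had the closest pair by mean change, 0.0056 apart. Its probes still differed between the hairpins: hairpin 2 minus hairpin 1 was −0.13 by the brightest probe and 0.22 by the other. In the other 7 of the 13 genes the mean log2 change had 1 sign over all probes. It was above the control for MCM3, MCM4 and RFC3, and below it for MCM10, POLD2, PRIM1 and RFC2. Probes named for 1 gene may report different transcripts, which was not tested.

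**Figure D5:**
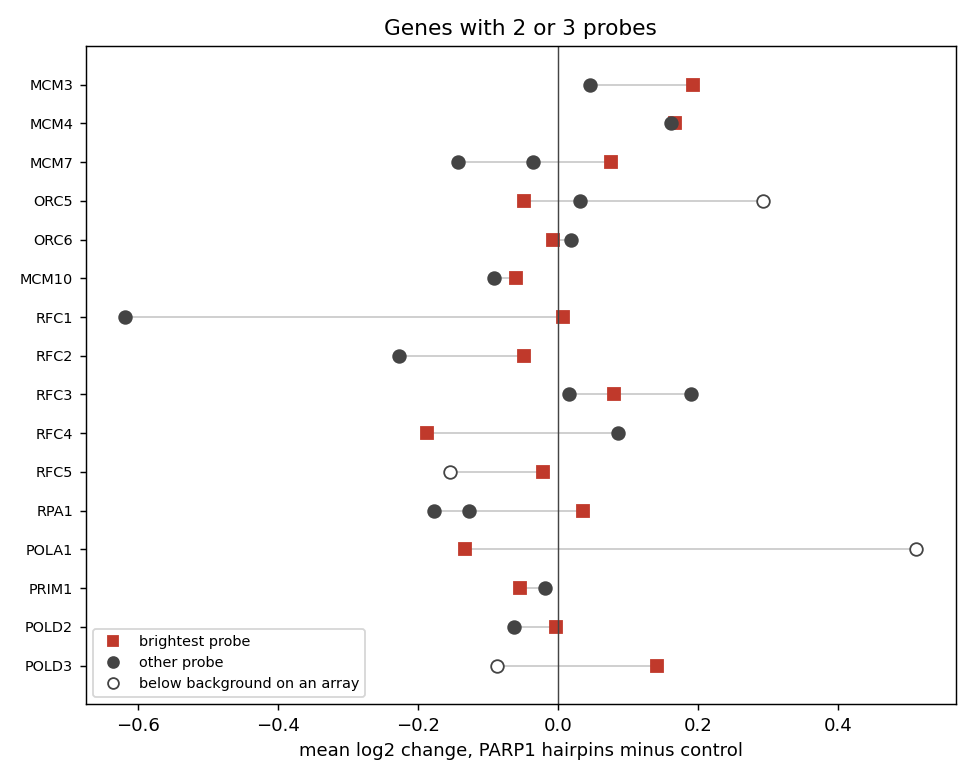
Mean log2 change, PARP1 hairpins minus control (x axis), for each probe of the 16 genes with 2 or 3 probes (rows); red squares are the brightest probe, which stands for the gene, and open circles are probes not above background on every array. The MCM4 probes nearly coincide, while RFC1 has 1 probe near 0 and 1 at −0.62.

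The rest of the replication machinery was read from a longer list. Of 26 further replication genes measured out of 28, 0 passed the limma test in either direction, 12 were above the control with both hairpins and 10 below (33.8% and 31.4% of all genes), and the median log2 change was 0.028. PCNA, the sliding clamp, had log2 ratios of −0.032 with hairpin 1 and 0.091 with hairpin 2, and FEN1, the flap nuclease of lagging-strand maturation, had 0.024 and 0.036. POLE, the catalytic subunit of polymerase epsilon and the partner of POLE2, had 9.22 and 9.12 with the hairpins against 8.94 in the control, log2 ratios of 0.28 and 0.18. TIMELESS, a fork protection factor, had 0.17 and 0.16, but its binding partner TIPIN had −0.18 and −0.18. POLD4, the small subunit of polymerase delta, had −0.041 and −0.61. Its probe is dim, with log2 intensities of 6.31 with hairpin 1 and 5.75 with hairpin 2, against 6.36 in the control. On the hairpin 2 array the lowest signal above background was 5.53. Of 16 further nucleotide supply genes measured out of 18, 0 passed the limma test, 7 were above the control with both hairpins and 3 below (33.8% and 31.4% of all genes), and the median log2 change was 0.010. GART, an enzyme of purine synthesis, had 11.83 and 11.95 with the hairpins against 11.53 in the control, a mean log2 change of 0.36 ± 0.11 with a limma p of 0.0099 before adjustment and 0.994 after it. DTYMK, thymidylate kinase, was above background on 1 array only. PCNA, FEN1, POLE, POLD4, TIMELESS, TIPIN, GART and DTYMK were singled out from these lists after their values were seen.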

How the data were processed

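Bead-averaged probe intensity was deposited by the authors on a linear scale, made with GenomeStudio per the submitters' processing notes, with no background subtracted and no scaling between arrays that the values show. A detection p-value stands beside each intensity per the file headers. It moves in steps of 1 in 770. The other deposited table holds the same intensity values after what the values show to be quantile normalization (sorted columns equal to within 0.706). The sources used here give no version, background setting or annotation.

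The tool neqc (limma 3.58.1, R 4.3.3) removed background by a normal-exponential model that used the detection p-values, added an offset of 16, equalised quantiles and took log2. Probes were named from the platform annotation (30106 with 1 gene symbol, 17203 without 1, among them 8 with several), checked through gene IDs against RefSeq (GRCh38.p14; 0 symbols updated). A probe was kept if its detection p was under 0.01 on any array, and a gene was read from its brightest probe by mean log2 intensity. The 2 PARP1 hairpin arrays were set against the 1 control array in limma (lmFit and trended eBayes), adjusting p-values by Benjamini-Hochberg over 10692 genes, with calls at 0.05. Only 1 residual degree of freedom, the gap between the hairpins, was available, and limma borrowed a median of 7.34 prior degrees across genes. Each SE is therefore limma's moderated one, and the control, a lone array, is taken to vary as the hairpin arrays do. The number of arrays limits the precision. The code was tested on simulated data.

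Members and lists were chosen with earlier results of these data known. Full statistics were given for E2F1, for the 2 members of each role furthest from the control among those above background on all arrays, and for any such member at least 1.2-fold from it with both hairpins; GINS1, MCM7 and RFC1 were singled out later. The alternatives tried were an uncorrected background, offset 50, 2 other normalizations (cyclic loess; median scaling), the authors' normalized table, stricter and no filtering of dim probes, averaging the probes of a gene, single probes, an untrended variance prior and leaving out each hairpin.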

Additional observations from a re-analysis of the deposited data

How the results depend on the processing

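No member passed the limma test in any setting in which a test was run. The number of genes called over the whole table was 0 with the main processing and 2 with median scaling (PARP1 and CTBP2, smallest limma adjusted p 5.85e-23). It was 1 when a gene's probes were averaged (PARP1, 0.00795), and 0 in the other 8 alternatives. The log2 change of PARP1 was −2.387 with median scaling and −2.388 with the main processing. The small adjusted p thus came with another variance estimate, not with a larger change, and adds no arrays. At an unadjusted limma p under 0.05 the tested settings held 332 to 879 genes. The median log2 change of the members was 0.0019 with the main processing, 0.0076 without hairpin 1 and 0.0143 without hairpin 2. When probes were averaged, the log2 change was −0.090 for RPA1, 0.19 for POLA1, −0.034 for MCM7 and −0.31 for RFC1, each opposite in sign to the brightest probe. With the next brightest probe standing for the gene it was 0.087 for RFC4, −0.13 for RPA1, −0.14 for MCM7 and −0.62 for RFC1. For RFC4, RPA1, MCM7 and RFC1 the sign thus rests on which probe is read. For POLA1 the log2 change by the next brightest probe was 0.51, from a probe above background with both hairpins but not in the control. Both hairpin values of that probe lay above the lowest control signal above background. The probe thus read higher with the hairpins, opposite to the brightest probe, though the size of its change is not measured. The sign of POLA1 therefore also rests on which probe is read. The other named members kept the sign of their mean change in every alternative that kept both hairpins. POLE2 lay between 0.30 and 0.32, RRM2 between −0.32 and −0.28 and E2F1 between −0.35 and −0.17, the last nearest 0 without background correction and in the authors' normalized table. Members above the control with both hairpins numbered 15 and those below it 15 when probes were averaged, against 14 and 9 with the main processing. Over the 59 single probes the counts were 19 and 16. The shares of all genes were 33.8% and 31.4% with the main processing. They were not counted in these alternatives, so the shift in counts cannot be called particular to the members. Leaving out a hairpin leaves 1 array against 1 and no test, and a count with both hairpins does not exist there. No paired analysis was possible because the hairpin and control arrays share no culture or batch number in the labels, and the control is 1 array. Signal over background limits the dim members ORC4, GINS1, E2F1, CDC6 and PRIM2 most.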

Other observations

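Genes that set the pace of S-phase entry, and mitosis genes, were near the control as well. Of 23 regulators of S-phase entry measured out of 24, 0 passed the limma test in either direction, with 0 at an unadjusted p under 0.05 (3.51% of all genes), 11 were above the control with both hairpins and 7 below (33.8% and 31.4% of all genes), and the median log2 change was 0.043. CCNE1, the cyclin that starts S phase with CDK2, had log2 ratios of 0.26 with hairpin 1 and 0.17 with hairpin 2, and E2F2 and E2F5, relatives of E2F1, had 0.18 and 0.095, and 0.15 and 0.25. CDKN1A, the p21 inhibitor of these kinases, had 10.22 and 10.33 with the hairpins against 10.52 in the control, a mean log2 change of −0.24 ± 0.12 with a limma p of 0.087 before adjustment and 0.994 after it. CDKN1B, the p27 inhibitor, had log2 ratios of 0.17 and 0.15. All 18 mitosis genes were measured, 0 passed the limma test, 6 were above the control with both hairpins and 8 below, against the same shares of all genes, and the median log2 change was −0.0019. CCNB1, the mitotic cyclin, had 11.59 and 11.72 against 11.40 (limma adjusted p = 0.994, and 0.0499 before adjustment), and MKI67, the proliferation antigen, had 7.68 and 7.71 against 7.65. The mitotic kinases AURKA and TTK lay below the control, with log2 ratios of −0.057 and −0.18, and of −0.096 and −0.15, as did the phosphatase CDC25C, with −0.084 and −0.23. BUB1 and BUB1B of the same list lay above it, with log2 ratios of 0.13 and 0.30, and of 0.046 and 0.44. These genes were picked from their lists after the values were seen.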
